A study of Canis lupus familiaris with 8 samples.

Results

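Transcripts of creatine supply, creatine kinase and adenine nucleotide exchange were examined in the hearts of dogs with hyperhomocysteinemia (HHcy), in which blood holds too much homocysteine, an amino acid formed from methionine. The members were 9 genes chosen by name: the creatine synthesis enzymes GATM and GAMT, the creatine transporter SLC6A8, the creatine kinases CKM, CKB and CKMT2, the adenylate kinase AK1, and the ADP/ATP carriers SLC25A4 and SLC25A5. Every probe set to which the platform annotation gives 1 of these symbols and no other was taken. This gave 9 probe sets of 5 genes, out of 23913 on the array, of which 10549 carry 1 symbol: 4 for CKMT2, 2 for SLC25A5, and 1 each for GATM, AK1 and SLC25A4. CKM, CKB, GAMT and SLC6A8 were not analysed here, because no probe set carries their symbol alone. The annotation gives no symbol to 13226 probe sets and several to 138, and unnamed ones may cover these genes. Creatine kinase is thus represented by its sarcomeric mitochondrial form, and creatine supply by GATM.

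The 8 samples were total RNA of heart tissue from male dogs weighing 23 to 27 kg, hybridised to Affymetrix canine arrays. In the HHcy group, 4 dogs (numbered 5 to 8) had methionine, the dietary precursor of homocysteine, in the drinking water for 2 weeks. The control group was 4 dogs (numbered 1 to 4) for which the labels name no agent. Breed, age and heart chamber are not given in the sources used here. Each sample title carries its own number and was taken as a separate dog, although the titles of the HHcy samples read "dogs" in the plural. Differences between animals and in handling both enter the spread between arrays, and the number of arrays limits the precision of every value.

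Heart muscle spends ATP at a high and fluctuating rate and buffers it with phosphocreatine. Mitochondrial creatine kinase sits between the mitochondrial membranes beside the ADP/ATP carrier, which sends ATP out and brings ADP in, and passes the phosphate of fresh ATP to creatine. Cytosolic creatine kinase returns it to ADP at the myofibrils, and adenylate kinase converts a pair of ADP molecules to ATP and AMP. Creatine itself is made mostly in kidney and liver and taken up by heart. Its last step, carried out by GAMT, takes a methyl group from S-adenosylmethionine and leaves S-adenosylhomocysteine, which is split to homocysteine, so creatine synthesis is a known source of homocysteine in the body.

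HHcy 6 stood apart from the other arrays, which bears on most values below. Its mean correlation with the others was 0.784, against 0.857 to 0.907 for the rest. Of 18 cardiomyocyte marker genes, 14 had a named probe set, and 13 of these were lowest on HHcy 6. The cardiomyocyte markers, each by its brightest probe set, had a summed signal of 24494 on HHcy 6, against 263211 to 413987 on the controls and sums of 289633 to 331532 on the remaining HHcy arrays. None of the markers was at 0, but the light chain MYL3 had a signal of 27.4 and troponin TNNT2 of 24.5 there, against at least 6933 and 5899.6 on every other array. Smooth muscle markers (6 of 8 genes with a named probe set) summed to 80931 on HHcy 6, against 3960.1 to 14462 on the controls and 9426 to 11102 in the remaining HHcy dogs. The 3'/5' signal ratio of the actin control probe sets rises when RNA is degraded or copied incompletely. It reached 599.6 for HHcy 6 and 15.3 for HHcy 5, while all remaining arrays had ratios of 0.378 to 2.67. Control 2 also differed from the other controls. Its mean correlation, 0.857, was the lowest after HHcy 6, and its actin and GAPDH ratios, 0.378 and 1.46, were the lowest of all arrays.

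CKMT2 and SLC25A4, the muscle-type pair of the mitochondrial energy shuttle, had steady signals on 7 of the 8 arrays and very low ones on HHcy 6. AK1 had its highest signal on that same array, and 3 of the 4 HHcy dogs lay above all controls. SLC25A5, the widely expressed carrier, had its highest signal in control 2, and GATM was near the low end of the measurement. With limma and Benjamini-Hochberg adjustment over 14301 probe sets, 0 of the 6 tested member probe sets passed (1 at an unadjusted p under 0.05, that of AK1). Over all tested probe sets 0.0979% passed and 17.8% had an unadjusted p under 0.05. The median log2 fold change of the 6 was -0.66 with all arrays and -0.0038 without HHcy 6, against 0.15 and 0.11 over all tested probe sets. In none of the 9 member probe sets did all HHcy arrays lie on the same side of all control arrays, whereas 11.4% of all tested probe sets separated in this way.

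**Figure D1:**
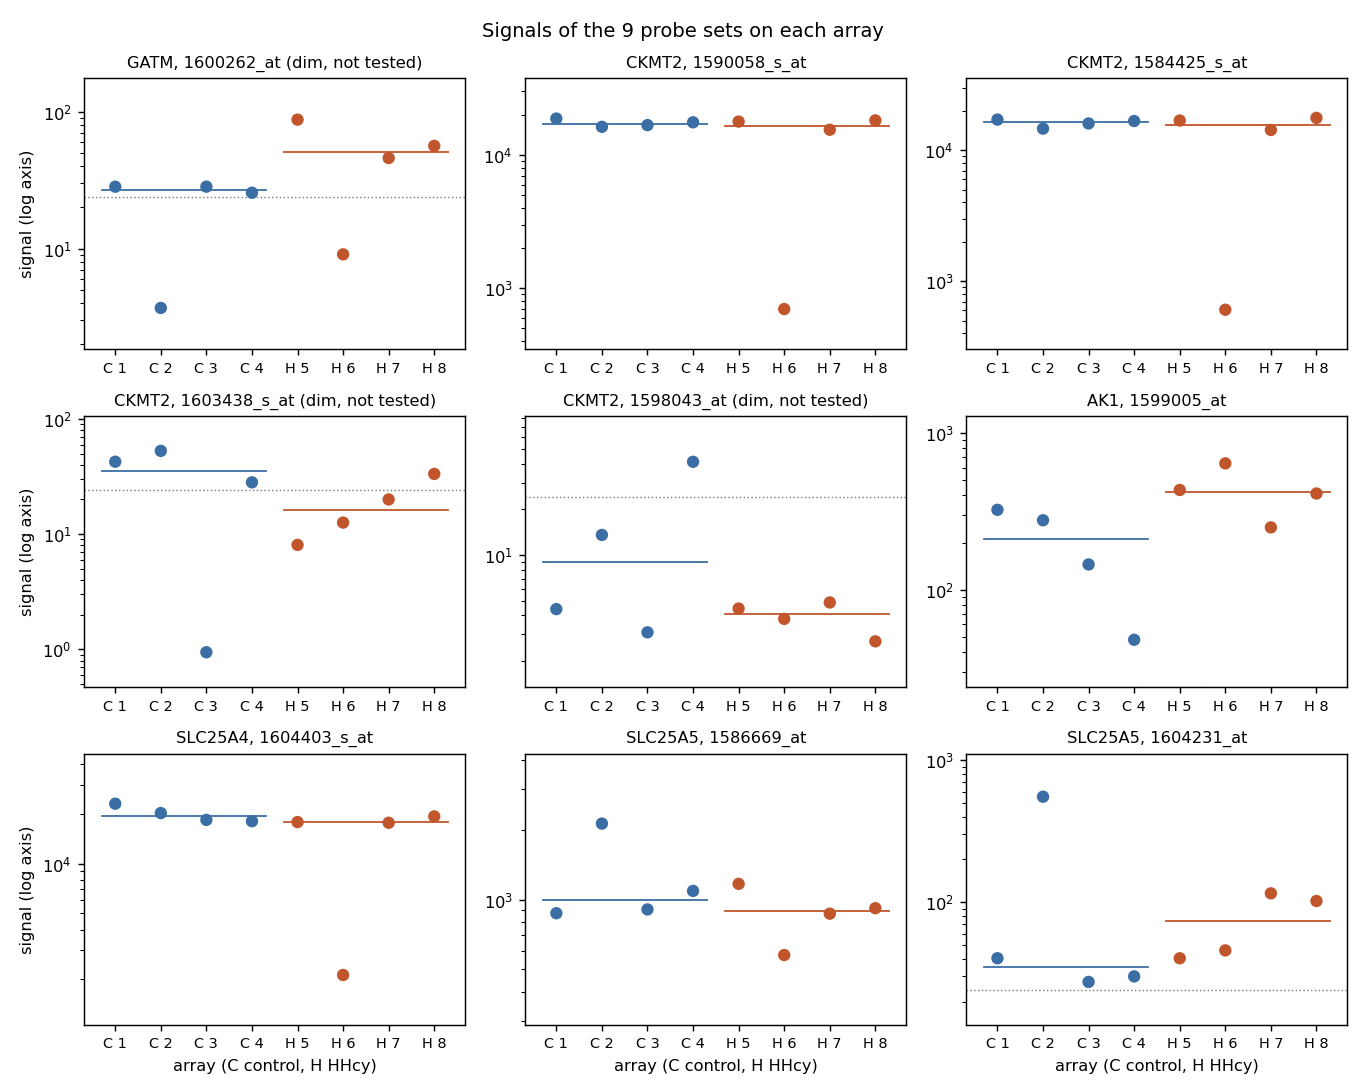
Signal of each of the 9 probe sets (log axis) on each array, controls (C, blue) and HHcy (H, orange), with a line at each group's median and, in panels with signals under 60, a dotted line at a signal of 24, the pseudocount. Both bright CKMT2 probe sets and SLC25A4 are level across 7 arrays and low on HHcy 6, and AK1 is highest there.

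GATM makes guanidinoacetate, the precursor of creatine, and is known chiefly from kidney. Its signal was 28.3, 3.68, 28.3 and 25.6 in controls 1 to 4, and 87.5, 9.07, 45.9 and 56.3 in HHcy 5 to 8. HHcy 5, 7 and 8 lay above all controls, and HHcy 6 lay below 3 of them. The probe set (1600262_at) was among the dimmest 40% and was not part of the tested set. Its log2 difference between group means of log2(signal + 24) was 0.62 (HHcy minus control), and without the low-signal filter limma gave an unadjusted p of 0.175 and an adjusted p of 0.521. No fold is given, since the control mean of 21.5 ± 11.9 (SD, n = 4) lies under the pseudocount of 24 that was added before taking logs.

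CKMT2 is the creatine kinase of muscle mitochondria. On its brightest probe set (1590058_s_at) the signal was 18759.9, 16262.5, 16751 and 17584.5 in controls 1 to 4. In HHcy 5 to 8 it was 17807, 699, 15468 and 18184. The groups overlap: HHcy 5 and HHcy 8 lay within the controls, HHcy 7 just below the lowest control, and HHcy 6 far below it. The probe set 1584425_s_at gave signals of 17127, 14614, 16004 and 16704 in controls and 16846, 607, 14273 and 17649.8 in HHcy 5 to 8. Here HHcy 8 lay just above the highest control, HHcy 5 within the controls and HHcy 7 just below them, and HHcy 6 was again far below all other arrays. HHcy 6 stood at 4.03% and 3.77% of the control mean on these probe sets, and the lowest other array was 22.1 and 23.5 times as high.

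The group means of CKMT2 follow that array. On 1590058_s_at the mean signal was 17339.5 ± 1093 in controls and 13039 ± 8314 in HHcy (SD over 4 dogs), a log2 fold change of -1.16 ± 0.84 (SE, limma adjusted p 0.472). On 1584425_s_at it was -1.16 ± 0.87 (SE, adjusted p 0.481). Without HHcy 6 the log2 fold changes were -0.017 ± 0.16 and 0.0096 ± 0.16 (SE). The 95% interval of the fold was then 0.781 to 1.25 on the brightest probe set and 0.790 to 1.28 on the other, so for the remaining 3 HHcy dogs larger changes of CKMT2 lie outside the interval. Over the 7 arrays other than HHcy 6, the highest signal was 1.21 and 1.24 times the lowest on these probe sets. The median of that ratio was 2.91 over all tested probe sets and 1.63 over the 415 with a control mean of at least 10000.

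The remaining CKMT2 probe sets were both among the dimmest 40%. On 1603438_s_at the signals were 42.5, 52.8, 0.945 and 28.2 in controls and 8.07, 12.6, 20.01 and 33.3 in HHcy 5 to 8. On 1598043_at they were 4.397, 13.6, 3.09 and 41.3 in controls and 4.44, 3.79, 4.86 and 2.69 in HHcy. Most of these signals lie under the pseudocount, so these probe sets cannot show whether CKMT2 was lower on HHcy 6. Which part of the transcript each probe set covers was not analysed here. The ending _s_at marks probe sets that can match more than one transcript.

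AK1, the cytosolic adenylate kinase of muscle and red blood cells, was the member whose HHcy values lay highest against its controls. Its signal (1599005_at) was 323, 278, 145 and 48.0 in controls 1 to 4 and 433, 639.8, 249.8 and 411 in HHcy 5 to 8. HHcy 5, 6 and 8 lay above all controls, and HHcy 7 lay below controls 1 and 2. The mean was 198 ± 126 in controls and 433 ± 160.0 in HHcy (SD over 4 dogs), a 2.31-fold difference on the log2(signal + 24) scale. The log2 fold change of 1.21 ± 0.48 (SE) had a limma unadjusted p of 0.0270 and did not pass after adjustment (adjusted p 0.233, range over its alternatives 0.150 to 0.931). An unadjusted p under 0.05 in the higher direction was found for 11.9% of all tested probe sets, and in the lower direction for 5.94%.

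The size of the AK1 difference depended on control 4, whose signal of 48.0 was the lowest. Without that array the log2 fold change was 0.74 ± 0.38 (SE, limma adjusted p 0.421), and without HHcy 6 it was 1.0 ± 0.49 (SE, adjusted p 0.357). Quantile and median scaling gave 1.05 and 0.90. AK1 differed from CKMT2 and SLC25A4 on HHcy 6, where its signal was 322% of the control mean. The part of the marker and 3'/5' differences of that array in the AK1 values was not tested beyond the covariate fit, in which the log2 fold change was 0.93 ± 0.61 (SE, adjusted p 0.931).

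SLC25A4 is the ADP/ATP carrier of heart and skeletal muscle. Its signal (1604403_s_at) was 23101, 20268, 18429 and 18092 in controls 1 to 4 and 17877, 2123, 17702 and 19351.5 in HHcy 5 to 8. HHcy 5 and HHcy 7 lay just under the lowest control and HHcy 8 within the controls, whereas HHcy 6 stood at 10.6% of the control mean. The mean was 19972 ± 2294 in controls and 14263 ± 8127 in HHcy (SD over 4 dogs). The log2 fold change was -0.89 ± 0.59 (SE, limma adjusted p 0.433) with all arrays and -0.12 ± 0.16 (SE, adjusted p 0.739) without HHcy 6, where the 95% interval of the fold ran from 0.724 to 1.17.

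SLC25A5, the ADP/ATP carrier of many tissues and of dividing cells, lay less far below its controls on HHcy 6. Its brightest probe set (1586669_at) gave 873, 2131, 907 and 1090.3 in controls 1 to 4 and 1170.1, 576, 869.8 and 918 in HHcy 5 to 8. HHcy 6 was again the lowest array, at 46.1% of the control mean, and control 2 the highest. The log2 fold change was -0.43 ± 0.33 (SE, limma adjusted p 0.491), -0.25 without HHcy 6 and -0.15 without control 2. On 1604231_at the signals were 40.3, 552, 27.5 and 30.05 in controls and 40.3, 45.8, 115 and 102 in HHcy 5 to 8. Control 2 was highest on both probe sets. The log2 fold change of 1604231_at was -0.097 ± 0.73 (SE, adjusted p 0.956) and turned to 0.74 ± 0.50 (SE, adjusted p 0.510) without control 2. This probe set is dim, with signals of 27.5 to 45.8 on controls 1, 3 and 4 and on HHcy 5 and HHcy 6. It passed the 40% filter but not the 60% filter, and control 2 raises the mean log2 value on which the filter acts. Its fold thus rests partly on dim values.

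The ADP/ATP carriers were also compared within each array, which removes array-wide scaling. The log2 value of SLC25A5 minus that of SLC25A4, each by its brightest probe set, was -4.06 ± 0.62 in controls and -3.60 ± 1.19 in HHcy (SD over 4 dogs). The value was -1.84 on HHcy 6 and -4.36 to -3.91 in HHcy 5, 7 and 8, which lies within the -4.69 to -3.23 of the controls. The difference between groups was 0.46 (exact two-sided permutation test over 70 splits, p = 0.600, the smallest possible being 0.0286), and it was -0.13 without HHcy 6 (exact permutation p = 0.771). This within-array value describes unequal change only, since the probe sets have different responses.

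**Figure D2:**
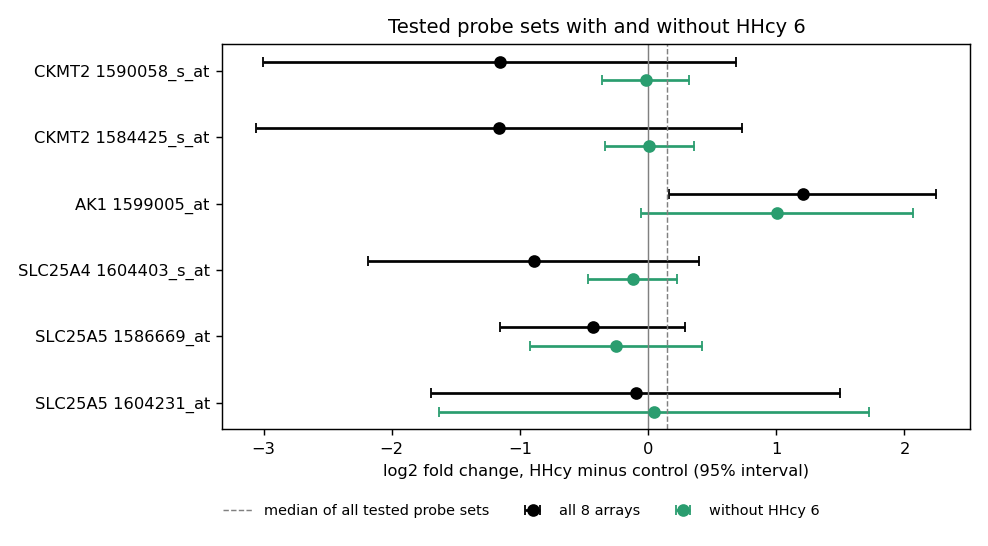
Log2 fold change (HHcy minus control, limma, with its unadjusted 95% interval) of the 6 tested member probe sets with all 8 arrays (black) and without HHcy 6 (green), the dashed line marking the median of all tested probe sets, 0.15. Without HHcy 6 both CKMT2 probe sets and SLC25A4 lie near 0 with narrower intervals, and AK1 lies at 1.0.

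The low CKMT2 and SLC25A4 signals were on HHcy 6 only, the array that also had low cardiomyocyte markers and the highest actin 3'/5' ratio. On HHcy 6 the log2 difference from the control mean was -4.58 and -4.67 for CKMT2 and -3.21 for SLC25A4, beside a median of -4.40 over the 14 cardiomyocyte markers, whose values there ran from -8.49 (MYL3) to 0.95 (LDB3). On HHcy 5, 7 and 8 the cardiomyocyte median was 0.13, -0.16 and -0.0077, and CKMT2 (1590058_s_at) had 0.040, -0.16 and 0.071. These medians use the brightest probe set of each gene. Over all 51 tested cardiomyocyte probe sets the median log2 fold change without HHcy 6 was -0.24, with 11 lower and 0 higher at an unadjusted limma p under 0.05 and 0 passing after adjustment. In that comparison 6.24% of all tested probe sets were lower at an unadjusted p under 0.05. A log2 difference under -3 on HHcy 6 was found for 257 of the 14301 tested probe sets (1.80%) and for 42 of the 415 with a control mean of at least 10000 (10.1%). In whole tissue, fewer cardiomyocytes and less RNA per cardiomyocyte cannot be told apart.

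Several other marker lists were higher on HHcy 6. The smooth muscle median was 3.63 there, and that of fibroblast markers (9 of 12 genes with a named probe set) was 1.88. Fibroblast markers summed to 96101 on HHcy 6, against 24262 to 37185 on the controls and 38462 to 67127 in the remaining HHcy dogs. The adipocyte median was 1.73 (summed signal 2057, against 439 to 876 on the controls). It rests on few genes, since only 3 of 7 had a named probe set and 2 were tested. Macrophage markers, 12 of 14 genes with a named probe set, summed to 9835 to 17009 in HHcy and 5955 to 7978 in controls, so these sums did not overlap with or without HHcy 6. Taken singly, 5 of the 15 tested macrophage probe sets had groups that did not overlap, against 11.4% of all tested probe sets. Endothelial markers summed to 23095 to 32743 in HHcy and 21588 to 29367 in controls, and fast skeletal muscle markers to 1358 to 1599 and 780.3 to 1471. The endothelial sum was highest on HHcy 6, but the endothelial median was lowest there, at -0.73. None of the markers was at 0. The part of these lists in the member values was not tested.

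**Figure D3:**
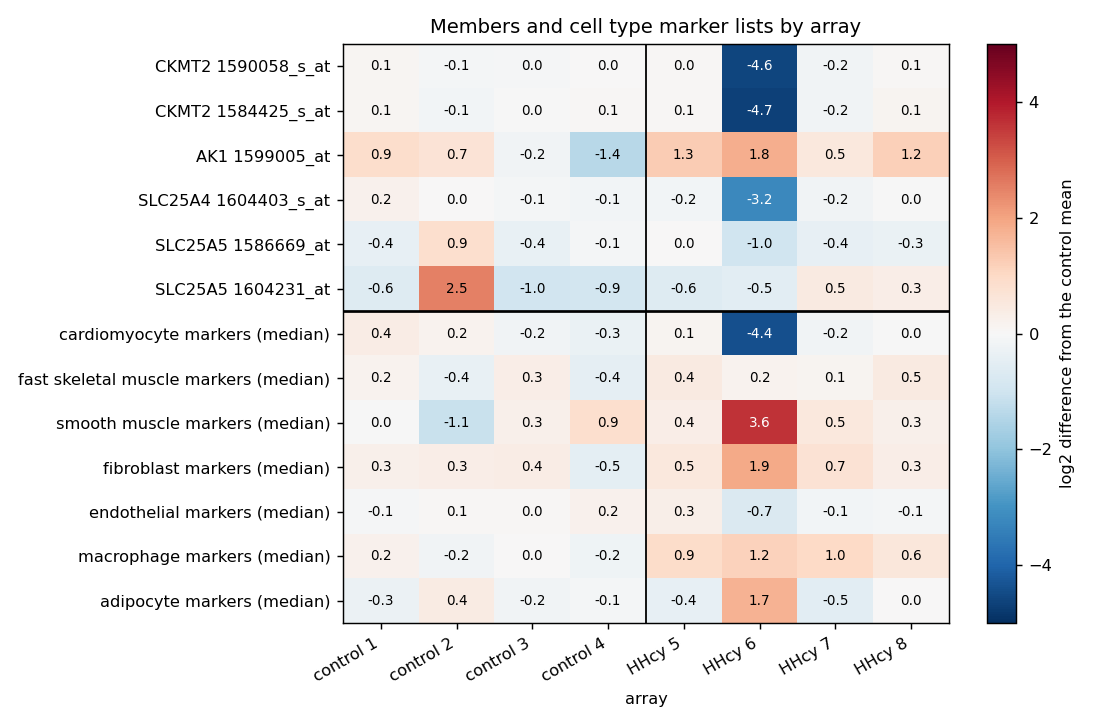
Log2 difference from the control mean for the 6 tested member probe sets (upper rows) and the median over each cell type marker list (lower rows) on each array; blue is lower and red higher. On HHcy 6, CKMT2 (-4.58 and -4.67), SLC25A4 (-3.21) and the cardiomyocyte markers (-4.40) are low, and the smooth muscle markers (3.63) are high.

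The 3'/5' ratios of HHcy 5 were also raised, at 15.3 for actin and 17.2 for GAPDH, against 1.46 to 5.14 for GAPDH on the controls, HHcy 7 and HHcy 8. The GAPDH ratio of HHcy 6 was 10.47, below that of HHcy 5, so the actin and GAPDH ratios put these arrays in opposite order. On HHcy 5 the CKMT2 signal of 17807 and the cardiomyocyte sum of 331532 lay within the control range, and the SLC25A4 signal of 17877 just below it. Single markers differed, since MYL3, TNNT2 and MB lay below all controls on HHcy 5. Their signals were 6933, 5899.6 and 14887, against control minima of 13604, 7179 and 16148, while the other markers lay within the control range. Single markers also lay below all controls on HHcy 7, whose actin ratio was 2.67. These were MYL3, RYR2 and TTN, at 10261, 15841 and 15054, against control minima of 13604, 18239 and 16204. RNA quality and tissue content were not separated by any test here. With the mean log2 3'/5' ratio as a covariate, the log2 fold changes of CKMT2 turned to 0.65 ± 0.71 and 0.69 ± 0.73 and that of SLC25A4 to 0.37 ± 0.49 (SE, limma adjusted p 0.933, 0.933 and 0.945). HHcy 6 had both the highest mean log2 ratio, 6.31, and the lowest CKMT2 signal.

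**Figure D4:**
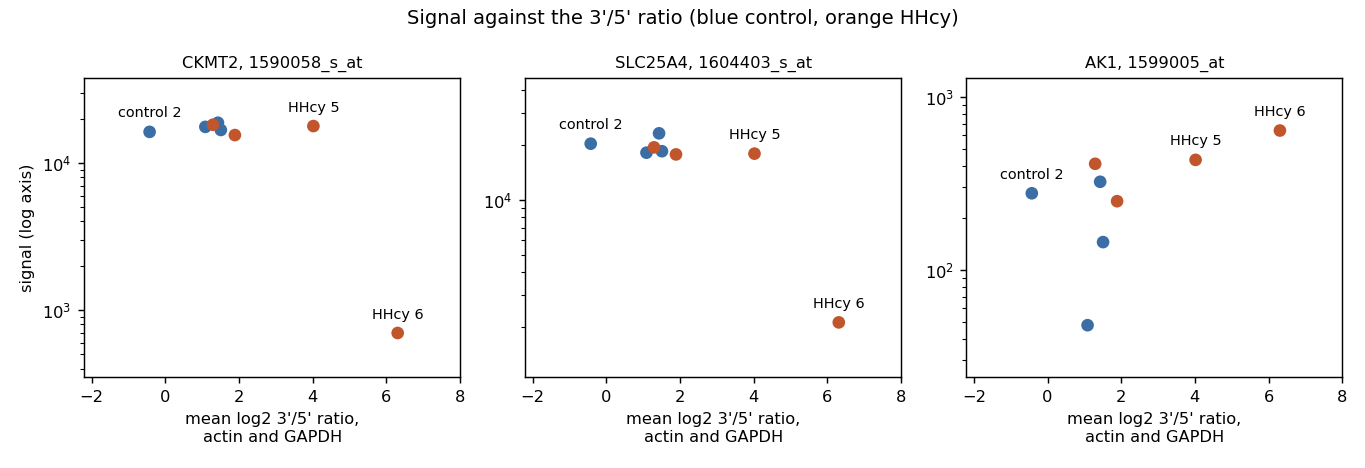
Signal (log axis) of CKMT2, SLC25A4 and AK1 on each array against the mean log2 3'/5' ratio of the actin and GAPDH control probe sets, controls in blue and HHcy in orange. HHcy 5, with a mean ratio of 4.02, has CKMT2 and SLC25A4 signals near those of the controls, and HHcy 6, with 6.31, has the lowest.

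The genes whose pattern was most like that of SLC25A4 over the 8 arrays, among 5011 genes with a tested probe set, were CYCS, PGAM2 and TNNC1. CYCS is cytochrome c of the respiratory chain, PGAM2 the muscle phosphoglycerate mutase and TNNC1 the cardiac troponin C. Pearson's r on the log2 scale was 0.998, 0.997 and 0.997 over 8 arrays, and 0.897, 0.797 and 0.900 over the 7 without HHcy 6. For GATM the most alike were VMA21, FAM168B and RPS27L, with r of 0.980, 0.963 and 0.950, and 0.981, 0.954 and 0.938 without HHcy 6. These are the highest values among many genes over few arrays and are descriptions only, and GATM is near the low end of the measurement.

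Related genes were taken from 4 lists holding 62 symbols, of which 31 had a named probe set. Of their 41 tested probe sets, 0 passed (4 at an unadjusted p under 0.05, against 17.8% of all tested probe sets; limma). Without HHcy 6 again 0 passed (6 at an unadjusted p under 0.05, against 14.9%). Their median log2 fold change was 0.076.

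Among the other nucleotide kinases, 0 of 9 tested probe sets passed, and the median log2 fold change was 0.43, or 0.38 without HHcy 6. Of the 9, 8 lay above 0 and the guanylate kinase GUK1 below, at -0.72 (limma adjusted p 0.380), whereas 7 lay above 0 with quantile or median scaling. The lowest p-values were those of NME6, a nucleoside diphosphate kinase, AK3, the GTP:AMP kinase of the mitochondrial matrix, and AK7, an adenylate kinase of cilia. NME6 had a log2 fold change of 0.67 ± 0.36, AK3 (1595053_at) 0.80 ± 0.45 and AK7 0.71 ± 0.41 (SE, limma adjusted p 0.350, 0.368 and 0.375). A second AK3 probe set had 0.52 (adjusted p 0.443). The difference of AK1 thus lay above that of each tested relative, and this order was not tested.

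Carriers and pores of the mitochondrial membranes gave 0 passing probe sets of 9, with a median of -0.28, or 0.048 without HHcy 6, where its sign turned. SLC25A6, a further ADP/ATP carrier, had a log2 fold change of -0.54 ± 0.28 on 1604119_at (SE, limma adjusted p 0.332), but 0.35 on 1601975_s_at and 0.076 on 1592155_x_at. VDAC2, a pore of the outer membrane through which adenine nucleotides pass, had -0.77 ± 0.52 on 1587432_at (SE, adjusted p 0.440), where HHcy 6 had a signal of 912 and all other arrays at least 5057. Without HHcy 6 it was -0.11, and its other probe sets had -0.31 and -0.17 with all arrays. The pore VDAC1 had -0.60 ± 0.41 (SE, adjusted p 0.440) on 1598316_at and -0.28 on 1585538_at.

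In the purine nucleotide cycle and salvage list, 0 of 14 passed, with a median of 0.14 that turned to -0.17 with median scaling. The median of all tested probe sets likewise turned from 0.15 to -0.15 with that scaling. AMPD2, an AMP deaminase, which removes the AMP that adenylate kinase forms, had signals of 518, 288, 445 and 460.0 in controls and 1282, 1127, 647 and 562 in HHcy 5 to 8. All HHcy arrays lay above all controls, as for 7.49% of tested probe sets, and the log2 fold change of 0.99 ± 0.32 (SE, limma adjusted p 0.180) did not pass. APRT, which salvages adenine, had 0.61 ± 0.31 on 1599422_at (SE, adjusted p 0.330), but -0.34 and 0.052 on its other probe sets. The purine nucleoside phosphorylase PNP had 0.81 ± 0.43 (SE, adjusted p 0.342).

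The list of methyl group supply and homocysteine release also holds genes outside the GAMT reaction, such as PEMT and NNMT. It had 0 of 9 passing and a median of 0.046, which turned to -0.066 and -0.26 with quantile and median scaling. With the same scalings the median of all tested probe sets moved from 0.15 to 0.011 and -0.15. MAT2A, which makes S-adenosylmethionine from methionine, had signals of 509, 1039.8, 548 and 897 in controls and 236, 239, 272 and 363 in HHcy 5 to 8 on 1592430_at. All HHcy arrays lay below all controls there and on 1592429_at, as for 3.89% of tested probe sets. The log2 fold changes were -1.31 ± 0.30 and -0.89 ± 0.28 (SE, limma adjusted p 0.121 and 0.171), and -0.31 on the brightest MAT2A probe set (adjusted p 0.438). AHCYL2, a relative of the enzyme that splits S-adenosylhomocysteine, had 1.42 ± 0.55 (SE, limma adjusted p 0.229). Its signals were 20.5, 10.2, 94.9 and 100.5 in controls, partly under the pseudocount, and 267, 60.7, 161 and 228 in HHcy 5 to 8. The AHCYL2 groups thus overlapped, and its fold rests partly on dim values. The splitting enzyme itself, AHCY, had 0.046 ± 0.24 (SE, limma adjusted p 0.934) and changed sign with both scalings.

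**Figure D5:**
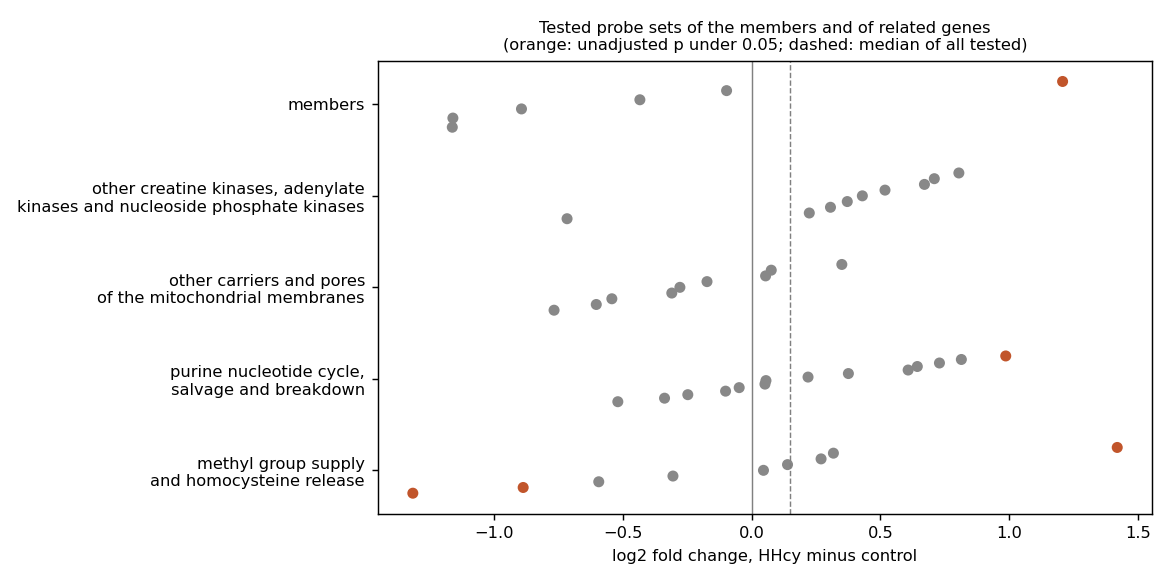
Log2 fold change (HHcy minus control) of each tested probe set of the members and of the 4 lists of related genes, orange where the unadjusted limma p is under 0.05 and grey otherwise; the dashed line marks the median of all tested probe sets, 0.15. AK1 is the rightmost member at 1.21, and MAT2A (-1.31) and AHCYL2 (1.42) are the outermost related probe sets. AHCYL2 has dim control signals and groups that overlap.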

How the data were processed

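The authors deposited linear intensities per probe set. The submitters' processing notes name MAS5, and the sources used here do not give its version or settings. The mean signal without the top and bottom 2% was about 500.1 on every array, and the arrays were not scaled again. Probe sets were named by the platform annotation, and for all 9 member probe sets the RefSeq gene table holds the same symbol under that gene identifier. Samples were grouped by title.

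Values were analysed as log2(signal + 24), where 24 is the 20th percentile of the whole table, which understates folds of dim probe sets. The 77 control probe sets and then the dimmest 40% were left out, leaving 14301. The comparison used limma version 3.58.1 in R version 4.3.3 (lmFit, eBayes with an intensity trend, Benjamini-Hochberg adjustment at 0.05). On simulated data for this comparison (14301 probe sets), 10% of 50 probe sets changed by 1 log2 unit were recovered, 64% at 2, 86% at 3 and 90% at 4. All member probe sets were described, with up to 3 of lowest p from each related list and 3 of highest r for SLC25A4 and GATM. GUK1 and AHCY were named after their values were seen. Members, lists and alternatives were chosen with earlier results of these data known. The alternatives were other scalings, pseudocounts, filters, variance models, array weights, 1 probe set per gene, a 3'/5' covariate and left-out arrays.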

Additional observations from a re-analysis of the deposited data

Results flagged for a closer look

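An array that lay far from the other 3 of its group was found in 7 of 44 groups of values examined, and chance alone gives about 5%. On HHcy 6 the CKMT2 signals of 699 and 607 stood against 15468 to 18184 and 14273 to 17649.8 for the other 3 HHcy dogs, the SLC25A4 signal of 2123 against 17702 to 19351.5, and the VDAC2 signal of 912 (1587432_at) against 5057 to 6408. On control 2 the GATM signal of 3.68 stood against 25.6 to 28.3 on the other controls, and the SLC25A5 signal of 552 (1604231_at) against 27.5 to 40.3. On HHcy 5 the APRT signal of 432 (1599422_at) stood against 199 to 215. These groups share arrays, so the 7 are not independent.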

How the results depend on the processing

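Under 20 alternative settings 0 member probe sets and 0 related probe sets passed in each. Some settings cannot move a log2 fold change: no low-signal filter, the dimmest 60% left out, no intensity trend, robust variance and 1 probe set per gene. Agreement in those was fixed in advance and adds to the count of values that kept their direction. Of 162 recomputed member values, 150 kept their direction or moved by less than the spread between dogs, while 12 tested values changed sign. With the 3'/5' covariate these were CKMT2 (0.65 and 0.69), SLC25A4 (0.37) and SLC25A5 (0.0016 and 0.97 on its 2 probe sets). CKMT2 on 1584425_s_at had -1.59 to 0.0096 when 1 array was left out, the highest without HHcy 6. SLC25A5 on 1604231_at also turned to 0.0026 with a pseudocount of 6, 0.62 with array weights, 0.74 without control 2, 0.087 without HHcy 5, 0.047 without HHcy 6 and 0.40 without HHcy 5 and HHcy 6, and had -0.42 to 0.74 when 1 array was left out. The within-array carrier difference ran from -0.13 to 0.74 when 1 array was left out, the lowest without HHcy 6, and was -0.27 without HHcy 5 and HHcy 6. With array weights CKMT2 had -0.31 and -0.30 and SLC25A4 -0.27. The cause of these changes was not tested. The count of 14 passing probe sets over the whole array was 7 with quantile scaling, 9 with the dimmest 60% left out, 76 with array weights, 8 with the brightest probe set of each gene (5015 tested), 5 with the covariate, 5 without HHcy 5 and HHcy 6, and 3 to 31 with 1 array left out. The median log2 fold change of all tested probe sets was 0.15, and 0.011 and -0.15 with quantile and median scaling. The planned comparison of CKB with CKM was not run, since neither has a named probe set. No paired analysis was possible because the groups share no replicate numbers. GATM and 2 CKMT2 probe sets lie too near the low end of the signal for a fold. SLC25A5 on 1604231_at was tested but is dim on most arrays and did not pass the 60% filter.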
